A study of Mus musculus with 3 samples.

Results

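The interleukin-6 family is a group of cytokines that signal through a shared receptor chain. The 10 genes described here are 5 of its ligands (Il6, Lif, Osm, Il11 and Ctf2), 4 receptor chains (Il6ra, Osmr, Lifr and Il6st) and the feedback inhibitor Socs3. They were found by gene symbol, each on 1 row, among the 32285 genes of every count matrix. The set was selected on the RNA counts of these same libraries, across cell classes and between groups, so levels and differences are given below as description, with no test.

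Ligands of this family bind a private receptor chain that pairs with gp130, the protein of Il6st. Paired chains activate Janus kinases, which phosphorylate STAT3, and STAT3 then drives target genes. Socs3 is one such target, and its protein binds gp130 and the kinases to shut the signal off. In injured tissue the family is known for acute inflammation, fibroblast activation and wound repair.

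Cells were taken from mouse cornea and limbus (the rim of the cornea that holds epithelial stem cells) and profiled as 10x Genomics droplet libraries. There were 3 groups of wt genotype, each with 1 library and, per the design text of the series, 1 mouse: NM injured and losartan treated, NM injured and saline treated, and uninjured. NM is nitrogen mustard, an alkylating agent, and losartan is a blocker of type 1 angiotensin II receptors. The tissue was the anterior segment of the eye after removal of lens, retina, iris, trabecular meshwork and nearly all conjunctiva, digested with liberase followed by trypsin. The labels' protocol puts the corneas in 1 tube, and how many eyes or animals went into a library is not clear from it. The sources used here give no time after injury, dose of losartan, strain or age. Since a group is a single library, a difference between groups cannot be told apart from a difference between libraries or the animals in them.

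After filtering there were 4919 losartan, 5800 saline and 11233 uninjured cells, with 84395199, 74616145 and 146532016 unique molecular identifiers (UMIs, tags that count RNA molecules). Median depth was 6495 UMIs in a losartan cell, 4113 in a saline cell and 11613 in an uninjured cell. Clusters were named from marker genes, so a class such as "stromal-like" rests on those markers. Clusters without clear markers stayed unnamed, as did shallow ones with no marker of their class among their top 10 genes. Unnamed cells made up 14.6% of losartan, 11.7% of saline and 19.9% of uninjured cells. Most of the uninjured ones lay in the shallow clusters 5 and 12. These scored highest for epithelial markers but are not counted as epithelial-like. Epithelial-like cells numbered 1700 in the losartan, 831 in the saline and 8309 in the uninjured library, and stromal-like cells (fibroblasts and keratocytes) 727, 692 and 427 in that order. The losartan library had 1340 neutrophil-like and 300 macrophage-like cells, the saline library 2932 and 515, and the uninjured library 1 and 9. The stromal marker list of 12 genes summed to 37288 CPM in losartan, 53069 CPM in saline and 84981 CPM in uninjured stromal-like cells, against 66.2, 55.1 and 87.0 CPM in epithelial-like cells. Cell barcodes shared by libraries numbered 7 for losartan and saline, 28 for losartan and uninjured, and 21 for saline and uninjured.

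The libraries did not fill a class with the same clusters, and this touches most results below. Of the 727 losartan stromal-like cells, 418 lay in cluster 17 and 309 in cluster 8. Of the 692 saline stromal-like cells, 676 lay in cluster 8 and 15 in cluster 17, while 311 of the 427 uninjured ones lay in cluster 18 and 75 in cluster 17. Median depth was 25409 UMIs in losartan cells of cluster 17, against 2187 in losartan and 2756 in saline cells of cluster 8. Stromal-like values are therefore given for the class and for the cluster. Injured epithelial-like cells lay in clusters 6, 7 and 19, which held 1, 0 and 2 uninjured cells. Uninjured epithelial-like cells lay in clusters 1, 3, 4, 10, 11, 13 and 15. Of these only cluster 11 held an injured cell, 1 from the losartan library. Epithelial-like cells could therefore not be compared with uninjured ones within a cluster.

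Levels are given as CPM, the UMIs of a gene per 1000000 UMIs of a class in a library. Intervals are exact 95% Poisson intervals for CPM, exact 95% Clopper-Pearson intervals for shares and exact 95% conditional binomial intervals for ratios. All of them cover counting error only. Log2 ratios use CPM + 5, which understates ratios of genes at low levels, and a difference is called higher or lower when it is past 1.5-fold on that scale. The number of cells holding 50% of a gene's UMIs, counted from the richest cell down, shows how concentrated the gene was.

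The upstream sequences of 4 members are shown because they are the ones that held 1 of 2 motifs, the STAT motif TTCNNNGAA and the AP-1 motif TGANTCA. Both strands of the 250 bases before each RefSeq start were searched on GRCm38.p6. The tables held such windows for 9 of the 10 members, 11 windows in all. The AP-1 motif was in windows of 3 members and the STAT motif in the window of 1, Socs3. Of 32851 such windows of all genes, 6.75% held the AP-1 motif and 7.02% the STAT motif. A match is a description of letters and neither a binding site nor a cause. The 160 bases from 250 to 91 bases before the start are printed 5′ to 3′ on the gene's strand from RefSeq, with the motif in capitals. They lie at chr5:30012864-30013023 on the plus strand for Il6, chr11:4257318-4257477 on the plus strand for Lif, chr7:4778232-4778391 on the minus strand for Il11 and chr11:117969457-117969616 on the minus strand for Socs3. The motif begins 249 bases before the start in Il6, 228 in Lif, 98 in Il11 and 154 in Socs3. Il11 had 2 windows, and the other, at the 5′ end of the annotated gene, held neither motif. The stretches of Il11 and Socs3 lie inside the gene spans given for these genes, before a RefSeq start within the span.
Il6: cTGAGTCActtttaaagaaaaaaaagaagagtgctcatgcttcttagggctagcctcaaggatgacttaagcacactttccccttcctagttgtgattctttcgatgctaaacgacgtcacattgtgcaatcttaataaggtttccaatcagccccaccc
Lif: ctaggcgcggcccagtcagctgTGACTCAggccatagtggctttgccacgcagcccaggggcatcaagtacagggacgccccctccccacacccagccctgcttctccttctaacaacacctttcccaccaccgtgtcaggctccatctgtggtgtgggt
Il11: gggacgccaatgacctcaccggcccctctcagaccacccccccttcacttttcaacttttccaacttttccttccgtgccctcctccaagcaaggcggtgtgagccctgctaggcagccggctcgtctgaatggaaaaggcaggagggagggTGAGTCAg
Socs3: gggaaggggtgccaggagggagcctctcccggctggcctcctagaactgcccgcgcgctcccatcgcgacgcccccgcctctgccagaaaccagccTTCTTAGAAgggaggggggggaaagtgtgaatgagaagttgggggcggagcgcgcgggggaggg

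The ligands differed in their sources. Osm came from neutrophil-like and macrophage-like cells in both injured libraries. Before cells were thinned to a common depth, epithelial-like cells held most Il11 in each library and most Lif in the uninjured one, while injured Lif was divided among several classes. Before thinning, Il6 had a different leading source in each library, and thinning moved the stromal-like share of losartan Il6 from 59.9% to 25.2%. In the injured libraries Ctf2 came almost wholly from a few stromal-like cells. The plot of ligand sources shows the shares before thinning.

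**Figure D1:**
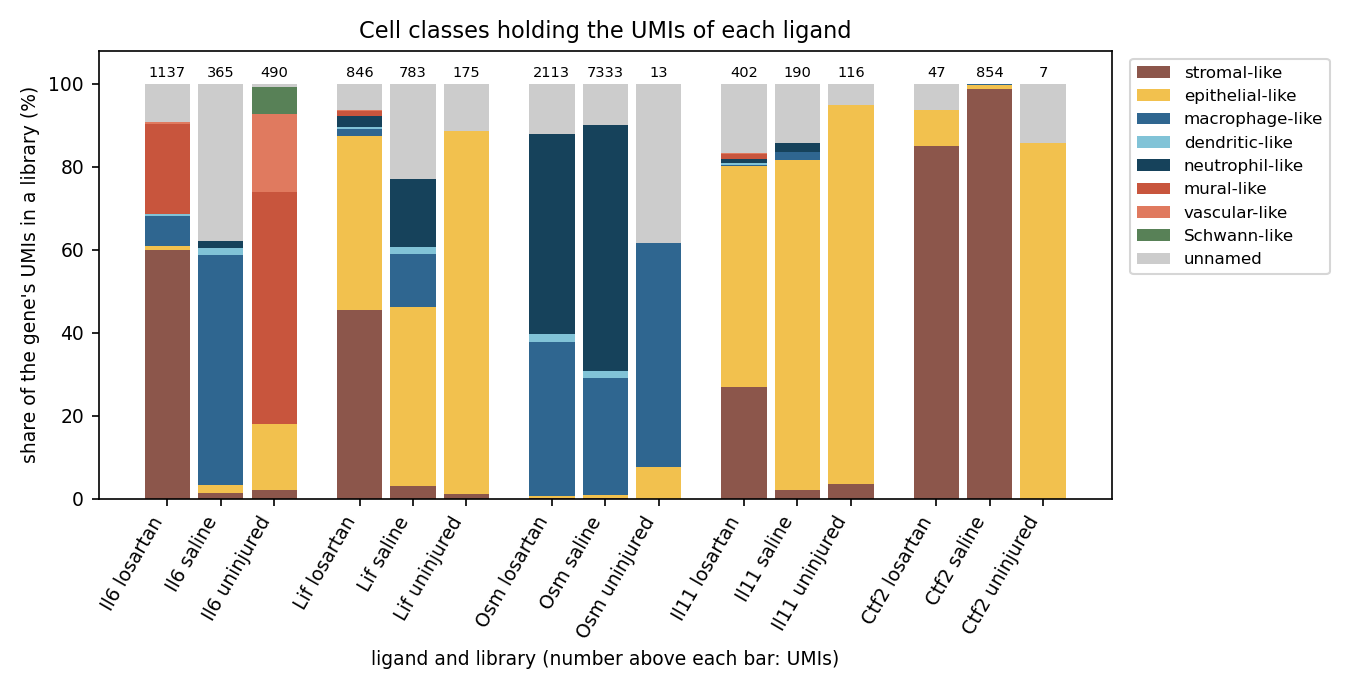
Share of each ligand's UMIs (%) held by each cell class, stacked, for the losartan, saline and uninjured libraries from left to right, with the number of UMIs above each bar. Before thinning, Il6 was led by stromal-like cells in the losartan library (59.9%) and macrophage-like cells in the saline library (55.3%). In the uninjured library it was led by mural-like cells (55.9%).

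Il6 encodes the founding cytokine of the family and lies at chr5:30013114-30019981 on the plus strand (GRCm38, GENCODE M21, as for all positions of genes here). It counted 1137 UMIs in the losartan, 365 in the saline and 490 in the uninjured library. In the losartan library, stromal-like cells held 59.9% of these UMIs, mural-like cells (pericytes and smooth muscle of vessels) 21.8%, unnamed cells 9.23% and macrophage-like cells 7.30%. In the saline library, macrophage-like cells held 55.3% and unnamed cells 37.8%. In the uninjured library, mural-like cells held 55.9%, vascular endothelial-like cells 18.8% and epithelial-like cells 15.9%. Before thinning, the leading class thus differed in every library, though the mural-like class itself had 36 losartan, 0 saline and 91 uninjured cells. Unnamed cluster 14.6, with 23 losartan and 6 saline cells, held 7.04% of losartan and 22.5% of saline Il6 UMIs. Its highest marker score was for mural markers, at 0.22, where the mural-like cluster had 1. With cells thinned to 1500 UMIs the stromal-like share of losartan Il6 was 25.2%, the macrophage-like share of saline Il6 was 45.2% and the mural-like share of uninjured Il6 was 70.4%.

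Few cells carried most of the Il6. 50% of its UMIs lay in 23 losartan cells (12 stromal-like, 8 mural-like, 2 unnamed and 1 macrophage-like), in 8 saline cells (5 macrophage-like and 3 unnamed) and in 17 uninjured cells (12 mural-like, 4 vascular and 1 Schwann-like). The richest losartan cell, a macrophage-like one of cluster 9.1, held 50 UMIs, and was followed by stromal-like cells of cluster 17 with 45 and 43. The richest saline cells were unnamed ones of cluster 14.6 with 43 and 34 UMIs, then a macrophage-like cell of cluster 9.0 with 21. A single Schwann-like cell held 30 of the 32 UMIs of that class in the uninjured library.

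In stromal-like cells, Il6 was at 60.2 CPM (55.7 to 64.8) in the losartan library, against 2.14 CPM (0.695 to 5.00) in the saline and 2.41 CPM (1.15 to 4.43) in the uninjured library. This was 28.1-fold (12.0 to 86.8) the saline level, a log2 ratio of 3.19, and 25.0-fold (13.5 to 52.4) that of uninjured, a log2 ratio of 3.14. All 681 stromal-like Il6 UMIs of the losartan library lay in cluster 17, at 64.2 CPM, and losartan cells of cluster 8 had 0 UMIs. The 15 saline cells of cluster 17 held 4 Il6 UMIs, 9.78 CPM (2.66 to 25.0), and the 75 uninjured ones 2 UMIs, 3.42 CPM. A UMI of Il6 was found in 15.5% (13.0 to 18.4) of losartan, 0.578% of saline and 0.937% of uninjured stromal-like cells. Median depth of these cells was 10599 UMIs in the losartan, 2774 in the saline and 10051 in the uninjured library. With every cell thinned to 1500 UMIs the shares were 3.47%, 0% and 0.244% in that order, leaving out 35 losartan, 60 saline and 17 uninjured shallower cells.

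Neutrophil-like cells were taken as the background for free RNA. They had 0 UMIs of Il6 in 1340 losartan cells, so the share could be as high as 0.224%, and 6 UMIs in 0.136% of 2932 saline cells. The median depth of those cells was 2599.5 UMIs in the losartan and 3942 UMIs in the saline library. In epithelial-like cells, Il6 was at 0.188 CPM in the losartan, 0.155 CPM in the saline and 0.585 CPM in the uninjured library, with a UMI in 0.529%, 0.481% and 0.662% of cells in that order. The uninjured stromal-like share thus lies close to the epithelial-like ones.

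Among uninjured named classes, mural-like and vascular cells had the highest Il6 levels. The 36 losartan mural-like cells held 248 UMIs, in 28 cells. Uninjured mural-like cells were at 706 CPM (625 to 794), with a UMI in 49.5% of 91 cells and in 40.4% after thinning. Uninjured vascular endothelial-like cells were at 249 CPM (201 to 306), with a UMI in 30.8% of 52 cells, while the 26 losartan vascular cells held 4 UMIs and the 15 saline ones 0. In macrophage-like cells the level was 24.7 CPM (19.7 to 30.6) in the losartan and 24.1 CPM (20.9 to 27.6) in the saline library. The share of macrophage-like cells with a UMI was 2.0% with losartan and 9.13% with saline, and 1 losartan cell held 50 of the 83 UMIs. Cluster 9.0, which had 257 saline cells and 1 losartan cell, held 173 of the saline UMIs at 36.4 CPM.

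Lif encodes leukaemia inhibitory factor, which signals through Lifr and gp130, and lies at chr11:4257557-4272514 on the plus strand, 16530 bases from Osm. It counted 846 UMIs in the losartan, 783 in the saline and 175 in the uninjured library. Its UMIs were divided among several classes in the injured libraries. Stromal-like cells held 45.4% and epithelial-like cells 42.0% of the losartan UMIs. In the saline library epithelial-like cells held 43.2%, unnamed cells 23.0%, neutrophil-like cells 16.3% and macrophage-like cells 12.8%, while in the uninjured library epithelial-like cells held 87.4%. After thinning to 1500 UMIs per cell, stromal-like cells held 30.3% of losartan Lif, and epithelial-like cells 12.8% of saline and 57.7% of uninjured Lif. 50% of the UMIs lay in 80 losartan, 87 saline and 63 uninjured cells.

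In epithelial-like cells Lif was higher in both injured libraries, with low levels in all 3. It was at 6.06 CPM (5.44 to 6.72) in the losartan, 7.47 CPM (6.70 to 8.31) in the saline and 1.15 CPM (0.973 to 1.34) in the uninjured library. Against uninjured, losartan was 5.28-fold (4.35 to 6.42) and saline 6.51-fold (5.36 to 7.93) higher, and losartan was 1.23-fold lower (1.06 to 1.44) than saline. These levels lie under the 10 CPM minimum set for counting a gene as measured. By cluster, Lif was at 1.02 CPM in losartan and 1.18 CPM in saline cells of cluster 6, at 9.81 and 11.9 CPM in cluster 7 and at 17.5 and 24.9 CPM in cluster 19. The 7 uninjured epithelial-like clusters ranged between 0.0818 and 3.47 CPM. A UMI of Lif was found in 14.2% of losartan, 21.7% of saline and 1.64% of uninjured epithelial-like cells, with median depths of 33413.5, 46527 and 14193 UMIs in that order. At 1500 UMIs per cell the shares were 1.29%, 1.55% and 0.188%.

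In stromal-like cells Lif was at 33.9 CPM (30.6 to 37.5) in the losartan, 9.85 CPM (6.25 to 14.8) in the saline and 0.481 CPM (0.0583 to 1.74) in the uninjured library. Between the injured libraries the ratio of losartan to saline was 3.44 (2.26 to 5.50), a log2 ratio of 1.39. Against the 2 UMIs of the uninjured library, the losartan level was 70.5-fold (19.4 to 584) and the saline level 20.5-fold (5.06 to 179). Cluster 17 was at 36.0 CPM in the losartan library with 382 UMIs, and its 15 saline cells were at 51.3 CPM (31.8 to 78.5) with 21 UMIs. Those 15 cells held most of the saline stromal-like Lif UMIs, so the saline ratio to uninjured rests on them. Uninjured cells of cluster 17 had 0 UMIs, so the losartan level there was at least 7.02-fold higher, with the 0 set to 3 counts over the cluster. In cluster 8, Lif was at 2.82 CPM in losartan cells. Within cluster 17, Lif was thus present in both injured libraries at levels whose intervals overlap.

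Among immune cells, Lif in macrophage-like cells was at 4.47 CPM in the losartan and 11.9 CPM in the saline library, 2.67-fold lower (1.54 to 4.94) with losartan. Of the 100 saline UMIs, 82 lay in cluster 9.0, which had 257 saline cells and 1 losartan cell. In the clusters of this class with at least 50 cells in both libraries, 9.1 and 9.3, the difference was not seen, with 4.83 CPM in losartan and 2.30 CPM in saline cells of cluster 9.1, and 6.53 and 6.84 CPM in cluster 9.3. Neutrophil-like cells were at 6.26 CPM in the losartan and 11 CPM in the saline library. In cluster 0 of these cells Lif was at 6.03 CPM in losartan and 12.3 CPM in saline cells, and in cluster 2 at 6.34 CPM in losartan and 6.73 CPM in saline cells. Cluster 0 held 297 of the 1340 losartan and 2253 of the 2932 saline neutrophil-like cells.

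Osm encodes oncostatin M, which signals through Osmr or Lifr with gp130, and lies at chr11:4236420-4241026 on the plus strand. It had the most UMIs of the 5 ligands in both injured libraries, with 2113 after losartan, 7333 after saline and 13 in the uninjured library. Neutrophil-like cells held 48.1% of the losartan and 59.1% of the saline UMIs, macrophage-like cells 37.0% and 28.2%, and unnamed cells 12.1% and 10.0%. The 9 uninjured macrophage-like cells held 7 of the 13 UMIs of that library. 50% of the UMIs lay in 143 losartan and 332 saline cells, so Osm was spread over many cells.

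Per UMI, the levels of Osm in its source cells differed little between the injured libraries. Neutrophil-like cells were at 289 CPM (272 to 308) in the losartan and 374 CPM (363 to 385) in the saline library, 1.29-fold lower (1.21 to 1.39) with losartan. Within cluster 0 the levels were 422 CPM in losartan and 405 CPM in saline cells, a ratio of 1.04 (0.931 to 1.16). Within cluster 2 they were 248 CPM in losartan and 272 CPM in saline cells, 1.10-fold lower (0.985 to 1.22). Both within-cluster intervals include no difference, and losartan cells lay mostly in cluster 2 while saline cells lay mostly in cluster 0. Macrophage-like cells were at 233 CPM (217 to 250) in the losartan and 246 CPM (236 to 257) in the saline library, a ratio of 0.945 (0.870 to 1.03). Their clusters went different ways, with 192 CPM in losartan and 261 CPM in saline cells of cluster 9.1, and 390 CPM in losartan and 263 CPM in saline cells of cluster 9.3. Dendritic-like cells were at 51.1 CPM in the losartan and 78.0 CPM in the saline library.

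A UMI of Osm was found in 36.0% of losartan and 48.5% of saline neutrophil-like cells, and in 62.7% and 72.6% of macrophage-like cells. Thinned to 1500 UMIs, these were 27.0% and 30.5% of neutrophil-like cells, leaving out 54 losartan and 77 saline cells, and 22.6% and 26.0% of macrophage-like cells, leaving out 12 and 11. Epithelial-like cells, which are not a known source, had a UMI in 0.647% of losartan, 5.42% of saline and 0.0120% of uninjured cells, and in 0.0614%, 0.130% and 0% after thinning. Neutrophil markers in those epithelial-like cells, summed over 15 genes, were at 72.7 CPM in the losartan, 179 CPM in the saline and 6.11 CPM in the uninjured library, with 0, 0 and 6 of the genes at 0. Epithelial Osm was thus low in all 3 libraries and followed the order of those markers, whose part in it was not tested.

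Il11 encodes interleukin-11, which signals through Il11ra1 and gp130, and lies at chr7:4772373-4782859 on the minus strand. It counted 402 UMIs in the losartan, 190 in the saline and 116 in the uninjured library. Epithelial-like cells held 53.2% of these in the losartan, 79.5% in the saline and 91.4% in the uninjured library, and 31.4%, 58.3% and 92.9% after thinning. Their level was 3.65 CPM (3.18 to 4.17) in the losartan, 3.34 CPM (2.83 to 3.91) in the saline and 0.795 CPM (0.651 to 0.962) in the uninjured library. Against uninjured, losartan was 4.59-fold (3.62 to 5.85) and saline 4.20-fold (3.25 to 5.43) higher, with a ratio of 1.09 (0.884 to 1.36) of losartan to saline. In cluster 7, which held most of it, Il11 was at 6.0 CPM in losartan and 6.13 CPM in saline cells. It was low in every class of at least 50 cells, and the injured epithelial-like levels differed from each other by less than the counting error.

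Single cells weighed heavily in Il11. 50% of its UMIs lay in 20 losartan and 11 saline cells, against 57 uninjured cells, none of which held more than 2 UMIs. In the losartan library, 1 stromal-like cell of cluster 17 held 68 of the 108 stromal-like UMIs, and the same cell held 45 UMIs of Il6 and 22 of Lif. An unnamed losartan cell of cluster 14.6 held 50 UMIs, and the richest saline cell, of cluster 7, held 19. Stromal-like cells were at 9.54 CPM (7.83 to 11.5) in the losartan, 1.71 CPM in the saline and 0.963 CPM in the uninjured library, a ratio of 5.57 (2.11 to 20.8) of losartan to saline that counts the 1 cell.

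Ctf2 encodes cardiotrophin 2, also called neuropoietin, which in mouse signals through gp130 with Lifr and the CNTF receptor, and lies at chr7:127718106-127732166 on the minus strand. It was nearly confined to a few saline stromal-like cells. There were 47 UMIs in 11 losartan cells, 854 in 25 saline cells and 7 in 7 uninjured cells. 50% of the UMIs lay in 1 losartan, 3 saline and 4 uninjured cells. Stromal-like cells held 85.1% of the losartan and 98.8% of the saline UMIs. Of the 427 uninjured stromal-like cells 0 had a Ctf2 UMI, a share of 0.703% with the 0 set to 3 cells.

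Within the saline library, 11 stromal-like cells with 5 or more Ctf2 UMIs held 838 of the 844 stromal-like UMIs, and 4 cells with 1 to 3 each held the other 6. The 11 cells carried between 6 and 192 UMIs of Ctf2 each, with a total depth between 1157 and 3375 UMIs and a median of 2278. The 3 richest held 192, 185 and 122, which is 8.43%, 5.48% and 5.83% of all UMIs of the cell. All 11 lay in cluster 8, and all had UMIs of the stromal genes Dcn and Lum, which encode decorin and lumican. Of these 11 cells, 2 had a UMI of Il6st and 0 had one of Lifr or of Ctf1, the related cardiotrophin gene. In the losartan library, 1 cell of cluster 8 held 35 of the 40 stromal-like UMIs, 1.02% of its 3437 UMIs. The plot of cumulative shares shows how early the Ctf2 curve climbs compared with the other ligands.

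Since so few cells carry it, the class level of Ctf2 describes those cells and not the class. It was 3.53 CPM (2.52 to 4.81) in losartan and 362 CPM (338 to 387) in saline stromal-like cells, and 0 UMIs in uninjured ones. It was 102-fold lower (74.5 to 144) with losartan than with saline, and with the 0 set to 3 counts over the class the losartan level was at least 4.89-fold and the saline level at least 501-fold higher than uninjured. Within cluster 8, Ctf2 was at 55.0 CPM in losartan and 439 CPM in saline cells, 7.98-fold lower (5.79 to 11.3) with losartan. A UMI was found in 4 losartan (0.550%) and 15 saline (2.17%, 1.22 to 3.55) stromal-like cells. After thinning the shares were 0.434% and 1.90%, and 0 of 1340 losartan and 0 of 2932 saline neutrophil-like cells had a UMI.

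Such concentration was not limited to Ctf2. Of the 3112 genes with at least 100 UMIs in saline stromal-like cells, 161 (5.17%) had 50% of them in 5 or fewer cells, and Ctf2 was one. In losartan stromal-like cells 56 of 8723 genes (0.642%) did, Il11 among them, and in uninjured ones 0 of 5963. Within cluster 8, 48 of 681 losartan genes (7.05%) and 111 of 2150 saline genes (5.16%) did. Epithelial-like cells had 0.167% of such genes in the losartan, 0.251% in the saline and 0.0644% in the uninjured library, with no member among them.

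**Figure D2:**
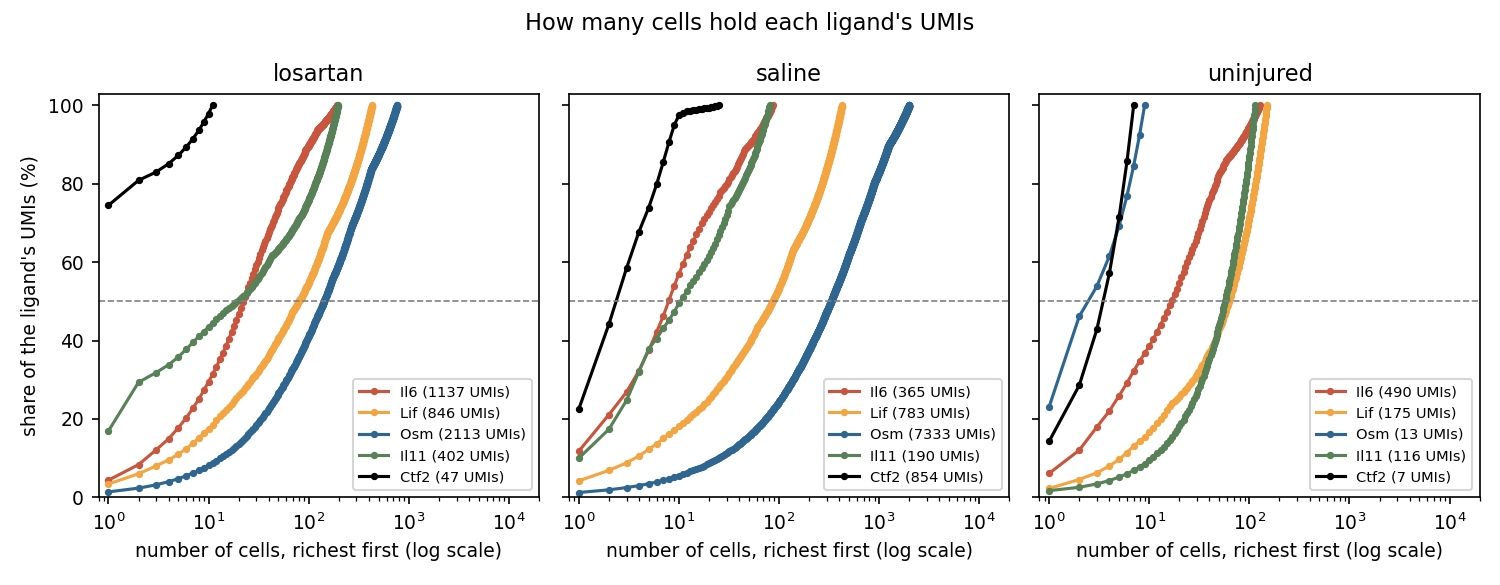
Cumulative share (%) of each ligand's UMIs against the number of cells on a log axis, counted from the richest cell, in panels for losartan, saline and uninjured, with a dashed line at 50%. Ctf2 passes the line at 1 losartan, 3 saline and 4 uninjured cells, while Osm passes it at 143 losartan and 332 saline cells.

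Some cells carried 2 ligands. Il6 and Lif were found together in 57 losartan, 25 saline and 0 uninjured cells, and Lif and Il11 in 57 losartan, 32 saline and 2 uninjured cells. Il6 and Il11 shared 17 losartan, 4 saline and 1 uninjured cells. Osm and Il6 shared 11 losartan, 46 saline and 0 uninjured cells. These numbers depend on depth as well as on the number of cells.

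The receptor chains had broader patterns than the ligands. By level among named classes of at least 50 cells, myeloid cells led Il6ra, and uninjured mural-like and vascular cells led Osmr. Uninjured vascular and Schwann-like cells led Il6st, and uninjured vascular cells led Lifr. Unnamed uninjured cluster 12, which scored highest for epithelial markers, had Osmr at 380 CPM, above the uninjured vascular level. The plot of levels shows all 10 genes in the 15 combinations of class and library with at least 50 cells.

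**Figure D3:**
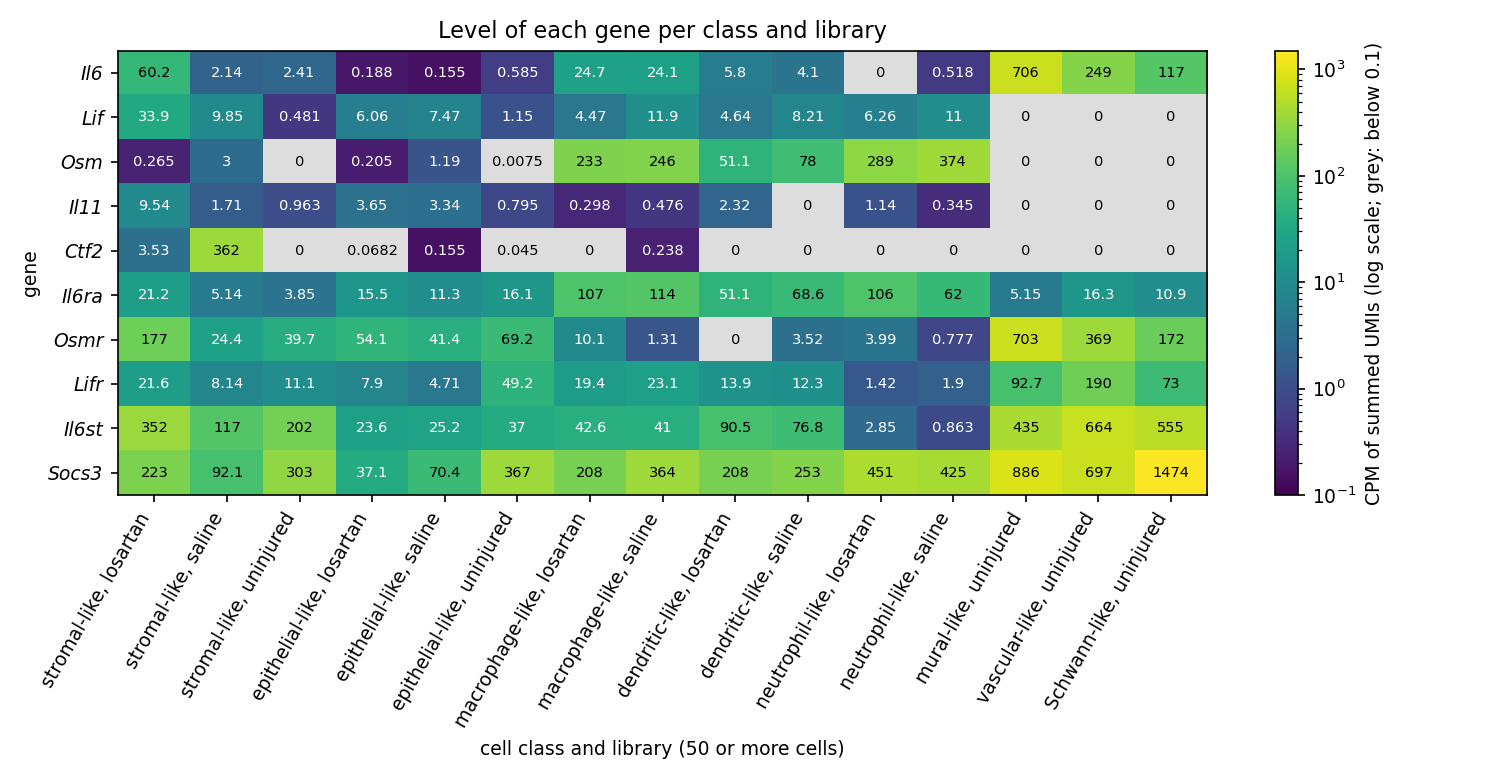
Level (CPM, colour on a log scale) of the 10 genes in each class and library with at least 50 cells, ordered losartan, saline, uninjured within a class. Osm is highest in neutrophil-like cells (289 CPM losartan, 374 CPM saline), Ctf2 in saline stromal-like cells (362 CPM), and Lifr is lower in injured than in uninjured epithelial-like cells.

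Il6ra encodes the interleukin-6 receptor chain, which binds the ligand on the cell or, once shed, in solution, and lies at chr3:89864059-89913196 on the minus strand. It counted 2194 UMIs in the losartan, 2651 in the saline and 2562 in the uninjured library, and 50% of them lay in 349, 312 and 711 cells in that order. Macrophage-like cells were at 107 CPM (96.2 to 119) in the losartan and 114 CPM (107 to 122) in the saline library, with a UMI in 56.0% and 68.5% of cells and in 15.6% and 16.1% after thinning. Neutrophil-like cells were at 106 CPM (96.0 to 118) in the losartan and 62.0 CPM (57.5 to 66.7) in the saline library, a ratio of 1.72 (1.51 to 1.95) and a log2 ratio of 0.74. Within cluster 0 the levels were 59.1 CPM in losartan and 45.5 CPM in saline cells, a ratio of 1.30 (0.944 to 1.75), and within cluster 2 they were 121 and 117 CPM. The difference over all neutrophil-like cells was thus larger than within either cluster.

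Outside myeloid cells, Il6ra was at 15.5 CPM in losartan, 11.3 CPM in saline and 16.1 CPM in uninjured epithelial-like cells. The injured epithelial-like clusters differed among themselves, with 53.7 CPM in losartan and 50.4 CPM in saline cells of cluster 19, 24.7 and 17 CPM in cluster 7, and 2.49 and 1.91 CPM in cluster 6. Stromal-like cells were at 21.2 CPM (18.6 to 24.1) in the losartan, 5.14 CPM (2.66 to 8.98) in the saline and 3.85 CPM (2.20 to 6.25) in the uninjured library. Ratios were 4.12 (2.32 to 8.09) for losartan to saline and 5.51 (3.32 to 9.79) for losartan to uninjured. Cluster 8 alone was at 8.46 CPM in losartan and 3.12 CPM in saline cells.

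Osmr encodes the oncostatin M receptor chain, which also pairs with Il31ra to bind interleukin-31, and lies at chr15:6813577-6874969 on the minus strand. It counted 5628 UMIs in the losartan, 2135 in the saline and 11849 in the uninjured library, with 50% of them in 346, 150 and 1375 cells. In stromal-like cells Osmr was highest in the losartan library, at 177 CPM (169 to 184), against 24.4 CPM (18.5 to 31.6) in the saline and 39.7 CPM (33.9 to 46.2) in the uninjured library. The losartan level was 7.23-fold (5.56 to 9.58) that of saline and 4.45-fold (3.79 to 5.24) that of uninjured, and the saline level was 1.63-fold lower (1.2 to 2.24) than uninjured. Values by cluster were uneven. Within cluster 8, Osmr was at 9.87 CPM in losartan and 8.84 CPM in saline cells, a ratio of 1.12 (0.392 to 2.83). Within cluster 17 it was at 188 CPM in losartan, 97.8 CPM (69.9 to 133) in the 15 saline and 144 CPM in uninjured cells, a ratio of 1.31 (1.05 to 1.65) of losartan to uninjured. Cluster 18, most of the uninjured stromal-like cells, was at 22.2 CPM.

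A UMI of Osmr was found in 51.0% of losartan, 4.19% of saline and 23.0% of uninjured stromal-like cells, and in 14.6%, 1.74% and 4.39% after thinning. Neutrophil-like cells, at 3.99 CPM in the losartan and 0.777 CPM in the saline library, had a UMI in 0.672% and 0.205% of cells in that order. In epithelial-like cells Osmr was at 54.1 CPM (52.2 to 56.0) in the losartan, 41.4 CPM (39.5 to 43.3) in the saline and 69.2 CPM (67.7 to 70.6) in the uninjured library, so the saline level was 1.67-fold lower (1.59 to 1.76) than uninjured. Losartan to saline gave a ratio of 1.31 (1.23 to 1.39) over the class and of 1.76 in cluster 19, with 186 CPM in losartan and 106 CPM in saline cells there. Uninjured mural-like cells were at 703 CPM (622 to 792) and uninjured vascular cells at 369 CPM. In macrophage-like cells Osmr was at 10.1 CPM in the losartan and 1.31 CPM in the saline library, from 34 and 11 UMIs. Of the losartan UMIs, 1 cell of cluster 9.3 held 9, and after thinning the log2 ratio turned to −0.34.

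Lifr encodes the receptor chain for leukaemia inhibitory factor and lies at chr15:7090614-7197489 on the plus strand. It counted 911 UMIs in the losartan, 560 in the saline and 7684 in the uninjured library. The clearest pattern was in epithelial-like cells, where the injured levels were low. They were 7.90 CPM (7.20 to 8.65) in the losartan and 4.71 CPM (4.10 to 5.38) in the saline library, against 49.2 CPM (48.0 to 50.4) in the uninjured library. Lifr was 6.23-fold lower (5.67 to 6.86) with losartan than in the uninjured library, a log2 ratio of −2.07, and 10.5-fold lower (9.12 to 12.0) with saline, a log2 ratio of −2.48. Between the injured libraries the ratio of losartan to saline was 1.68 (1.42 to 1.98). The injured clusters ranged between 3.32 and 25.3 CPM in losartan cells and between 4.41 and 12.8 CPM in saline cells, while the 7 uninjured clusters ranged between 19.6 and 73.5 CPM, so the ranges of losartan and uninjured clusters overlapped. A UMI of Lifr was found in 18.9% of losartan, 17.3% of saline and 45.0% of uninjured epithelial-like cells, although the injured cells were deeper, and in 1.23%, 0.648% and 7.71% after thinning.

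In stromal-like cells Lifr was at 21.6 CPM in the losartan, 8.14 CPM in the saline and 11.1 CPM in the uninjured library. Ratios were 2.66 (1.67 to 4.49) for losartan to saline and 1.96 (1.42 to 2.74) for losartan to uninjured. Within cluster 17, it was at 23.0 CPM in losartan and 47.8 CPM in uninjured cells, 2.08-fold lower (1.35 to 3.08), so the direction against uninjured turned with the cluster. Cluster 8 had 1 losartan and 14 saline UMIs. Uninjured vascular cells were at 190 CPM and uninjured mural-like cells at 92.7 CPM. Macrophage-like cells were at 19.4 CPM in the losartan and 23.1 CPM in the saline library, and neutrophil-like cells at 1.42 and 1.90 CPM.

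Il6st encodes gp130, the chain that all these ligands share, and lies at chr13:112464070-112510086 on the plus strand. It counted 6128 UMIs in the losartan, 2149 in the saline and 7220 in the uninjured library. 50% of the losartan UMIs lay in 193 cells, 186 of them stromal-like. Stromal-like cells were at 352 CPM (341 to 363) in the losartan, 117 CPM (103 to 131) in the saline and 202 CPM (189 to 217) in the uninjured library. The losartan level was 3.02-fold (2.67 to 3.43) that of saline and 1.74-fold (1.61 to 1.88) that of uninjured, and the saline level was 1.74-fold lower (1.51 to 2.0) than uninjured. Within cluster 8 the direction turned, with 71.9 CPM in losartan and 109 CPM in saline cells, 1.51-fold lower (1.11 to 2.09). Within cluster 17 it was at 371 CPM in losartan, 152 CPM (116 to 194) in the 15 saline and 202 CPM in uninjured cells.

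A UMI of Il6st was found in 61.6% of losartan, 25.4% of saline and 77.5% of uninjured stromal-like cells, and in 28.8%, 16.3% and 22.9% after thinning. Neutrophil-like cells had a UMI in 0.746% of losartan and 0.171% of saline cells, at 2.85 CPM and 0.863 CPM. In epithelial-like cells Il6st was at 23.6 CPM in the losartan, 25.2 CPM in the saline and 37.0 CPM in the uninjured library. Against uninjured, Il6st was 1.57-fold lower with losartan and 1.47-fold lower with saline. Macrophage-like cells were at 42.6 CPM in the losartan and 41.0 CPM in the saline library, and dendritic-like cells at 90.5 and 76.8 CPM. Uninjured vascular cells, at 664 CPM, and Schwann-like cells, at 555 CPM, had the highest levels of this gene among classes of at least 50 cells.

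Cells with UMIs of both chains of a receptor give the candidate receiving classes. Osmr with Il6st was found in 49.4% of losartan, 2.60% of saline and 19.4% of uninjured stromal-like cells, and in 6.36%, 0.316% and 1.22% after thinning. In epithelial-like cells it was found in 36.9% of losartan, 46.8% of saline and 23.3% of uninjured cells, but in 0.491%, 0.777% and 0.738% after thinning, so the order of the deeper cells was not kept at equal depth. Il6ra with Il6st was found in 20.7% of losartan and 30.9% of saline macrophage-like cells, with 1.04% and 0.595% after thinning, and in 0.149% and 0.0341% of neutrophil-like cells. Neutrophil-like cells thus had Il6ra at 106 CPM in the losartan and 62.0 CPM in the saline library with little Il6st. Lifr with Il6st was found in 10.8% of losartan, 12.0% of saline and 18.6% of uninjured epithelial-like cells, and in 0.184%, 0% and 0.563% after thinning. Among uninjured vascular cells, 55.8% had both of these and 61.5% had Osmr with Il6st.

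Socs3, at chr11:117966079-117970047 on the minus strand, is the target gene of the set. It counted 8493 UMIs in the losartan, 13461 in the saline and 53884 in the uninjured library. In epithelial-like cells it was lowest with losartan, higher with saline and highest without injury, with no overlap of intervals. The level was 37.1 CPM (35.5 to 38.7) in the losartan, 70.4 CPM (68.0 to 72.9) in the saline and 367 CPM (364 to 371) in the uninjured library. The losartan level was 9.91-fold lower (9.49 to 10.4) than uninjured, a log2 ratio of −3.15, and the saline level 5.22-fold lower (5.03 to 5.41), a log2 ratio of −2.30. With losartan it was 1.90-fold lower (1.80 to 2.01) than with saline, a log2 ratio of −0.84.

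The epithelial-like clusters did not move alike. Socs3 was at 23.6 CPM in losartan and 62.3 CPM in saline cells of cluster 6, at 47.5 and 77.8 CPM in cluster 7, and at 60.3 and 65.9 CPM in cluster 19. Uninjured clusters ranged between 118 CPM in cluster 3 and 719 CPM in cluster 1, all above the injured ones. A UMI of Socs3 was found in 39.9% of losartan, 56.0% of saline and 56.9% of uninjured epithelial-like cells, and in 4.73%, 8.03% and 29.5% after thinning, which left out 72 losartan, 59 saline and 311 uninjured cells. The thinned shares keep the order of the levels, while the unthinned ones hide most of it behind the depth of the injured cells.

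Socs3 is also one of the genes that cells switch on within minutes of handling and digestion. A set of 15 other such early-response genes, listed after the data had been seen, was summed beside it. The sum was at 4056 CPM in losartan, 4374 CPM in saline and 9367 CPM in uninjured epithelial-like cells, and Atf3 alone at 374, 370 and 1381 CPM in that order. Across clusters the sum ranged between 3628 and 4473 CPM in losartan cells, between 3870 and 4987 CPM in saline cells and between 3334 and 16592 CPM in uninjured cells. Socs3 was at 118 CPM in the uninjured cluster with the lowest sum, cluster 3, and at 719 CPM in that with the highest, cluster 1. The part of this response in the level of Socs3 was not tested.

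**Figure D4:**
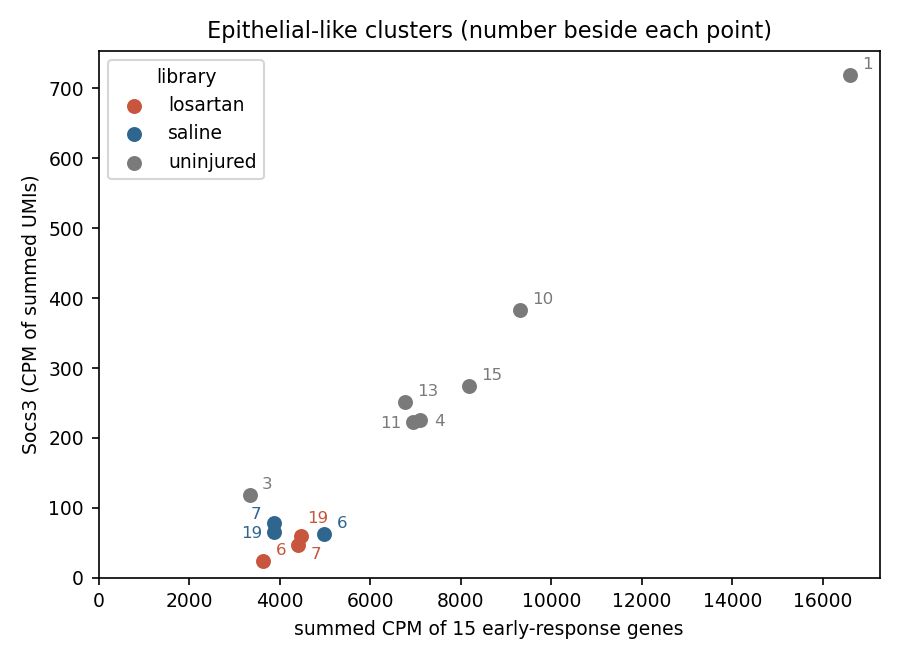
Socs3 level (CPM) against the summed level of 15 early-response genes (CPM) in each epithelial-like cluster, coloured by losartan, saline and uninjured library. Losartan clusters sit between 23.6 and 60.3 CPM of Socs3, saline clusters between 62.3 and 77.8 CPM and uninjured clusters between 118 and 719 CPM.

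In stromal-like cells Socs3 was at 223 CPM (215 to 232) in the losartan, 92.1 CPM (80.2 to 105) in the saline and 303 CPM (287 to 321) in the uninjured library. The losartan level was 2.43-fold (2.11 to 2.80) that of saline, and the saline level was 3.29-fold lower (2.85 to 3.83) than uninjured. Within cluster 8 it was at 52.2 CPM in losartan and 69.7 CPM in saline cells, and within cluster 17 at 235 CPM in losartan, 198 CPM (157 to 246) in the 15 saline and 454 CPM in uninjured cells. The early-response sum in stromal-like cells was 8619 CPM in the losartan, 4648 CPM in the saline and 9253 CPM in the uninjured library, the same order as Socs3, and its part was not tested. Socs3 in neutrophil-like cells was at 451 CPM in the losartan and 425 CPM in the saline library. Their early-response sums were 9492 and 10854 CPM. Socs3 was at 208 CPM in losartan and 364 CPM in saline macrophage-like cells, 1.75-fold lower (1.61 to 1.90) with losartan. Their sums were 6250 and 6134 CPM. In both classes the order of the sum was the reverse. Dendritic-like cells, at 208 and 253 CPM, had sums of 2744 and 3109 CPM, the same order as Socs3. Macrophage-like Socs3 was at 178 CPM in losartan and 306 CPM in saline cells of cluster 9.1, and at 338 and 395 CPM in cluster 9.3. Saline cells of cluster 9.0 were at 372 CPM. Uninjured Schwann-like cells, at 1474 CPM, had the highest level among classes of at least 50 cells, and uninjured mural-like cells were at 886 CPM.

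**Figure D5:**
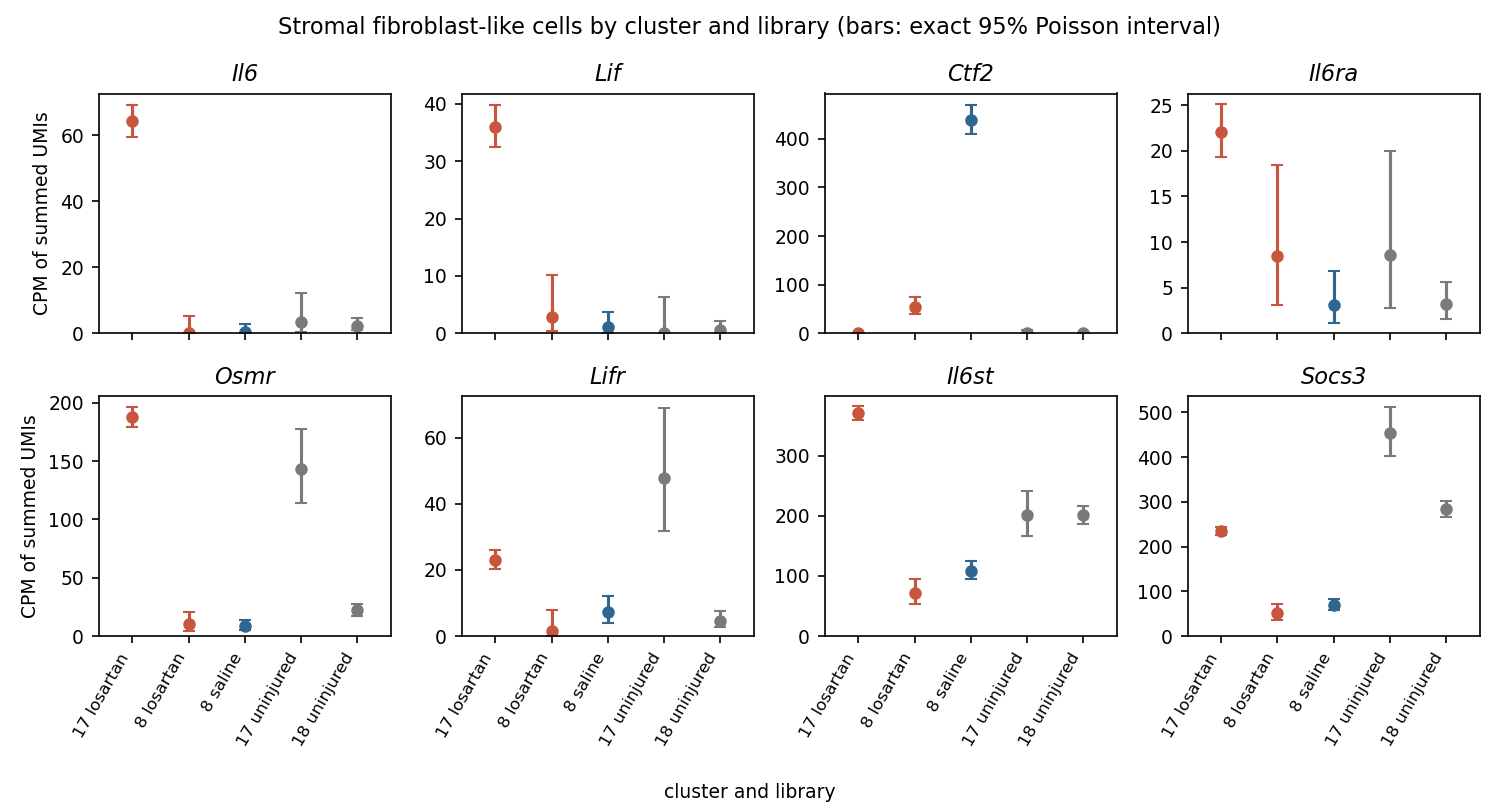
Level (CPM, with exact 95% Poisson intervals) of 8 members in stromal-like clusters: cluster 17 losartan, cluster 8 losartan, cluster 8 saline, cluster 17 uninjured and cluster 18 uninjured. Il6, Lif and Il6st stand high in losartan cells of cluster 17. Osmr was at 188 CPM in losartan and 144 CPM in uninjured cells of cluster 17. In cluster 8 it was at 9.87 CPM in losartan and 8.84 CPM in saline cells. Saline cells of cluster 17 are not shown.

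Counted over the set, most members were higher in losartan than in saline stromal-like cells. Of the 8 members at 10 CPM or more in the losartan or saline library, 7 were higher with losartan (Il6, Lif, Il6ra, Osmr, Lifr, Il6st and Socs3) and 1, Ctf2, was lower, with a median log2 ratio of 1.38. Of all 9450 genes so measured, 35.6% were higher and 17.3% lower, with a median of 0.31, and a median-of-ratios scaling put the centre of all genes at 0.40. In cluster 8 alone 3 members reached the minimum, 0 were higher and 1 was lower, against 12.5% of all genes higher and 24.1% lower. Since the members were chosen for such values, and pass the minimum through the library where they are high, nothing is read from these counts.

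The other stromal-like comparisons were mixed. For saline against uninjured, 1 of 5 measured members was higher (Ctf2) and 3 were lower (Osmr, Il6st and Socs3), where 12.8% of all genes were higher and 36.7% lower. The centre of all genes was at −0.46 there, and with that centre removed 1 was higher and 1 lower. For losartan against uninjured, 6 of 7 were higher and 0 lower, where 16.7% of all genes were higher and 21.8% lower. In cluster 17 alone, 4 of 7 were higher and 2 lower, where 21.5% of all genes were higher and 24.1% lower. Macrophage markers in stromal-like cells, summed over 15 genes, were at 184 CPM in the losartan (2 genes at 0), 1715 CPM in the saline (1 at 0) and 733 CPM in the uninjured library (5 at 0). Neutrophil markers, also 15 genes, were at 91.5 CPM in the losartan (1 at 0), 273 CPM in the saline (1 at 0) and 28.6 CPM in the uninjured library (10 at 0), and the part of such RNA in these results was not tested.

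In epithelial-like cells, losartan against saline had 0 of 4 measured members higher and 1 lower, Socs3, where 1.97% of all genes were higher and 5.94% lower. Against uninjured, saline had 0 of 5 higher and 3 lower (Osmr, Lifr and Socs3), where 20.7% of all genes were higher and 16.2% lower. Losartan had 0 of 5 higher and 2 lower (Lifr and Socs3), where 15.6% were higher and 18.6% lower. These comparisons share libraries, so they are not separate evidence. Losartan against saline in macrophage-like cells had 1 of 8 members higher (Osmr) and 2 lower (Lif and Socs3), where 7.75% of all genes were higher and 5.74% lower. The Osmr call turned direction after thinning, at −0.34, and the Lif call in cluster 9.1, at 0.43. In neutrophil-like cells 1 of 4 was higher (Il6ra) and 0 lower, where 12.2% were higher and 7.11% lower, which became 1 higher and 1 lower with the centre of all genes removed. In dendritic-like cells 0 of 5 passed either way, where 7.81% were higher and 10.6% lower.

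A further 49 genes of the pathway, chosen with earlier results of these data known, give the setting. In stromal-like cells, 24 of 37 measured were higher and 1 lower in losartan against saline, where 35.6% of all genes were higher and 17.3% lower. In cluster 8 alone 3 of 30 were higher and 8 lower, where 12.5% of all genes were higher and 24.1% lower. Among the STAT3-induced genes of that list, 14 of 18 were higher and 0 lower over the class, with a median log2 ratio of 1.71, beside 0.31 for all genes. In cluster 8 they were 2 higher and 2 lower of 15, with a median of −0.04, beside −0.18 for all genes. Saa3, an acute-phase serum amyloid, was at 684 CPM in losartan and 6.0 CPM in saline cells, yet cluster 8 had 0 losartan and 14 saline UMIs. Serpina3n, a serine protease inhibitor, was at 623 and 35.6 CPM, yet in cluster 8 at 15.5 CPM in losartan and 16.1 CPM in saline cells. Cebpd, a transcription factor of the acute-phase response, was at 1650 CPM with losartan, 230 CPM with saline and 351 CPM without injury, and in cluster 8 at 124 CPM in losartan and 136 CPM in saline cells.

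Losartan against uninjured had 17 of 40 pathway genes higher and 4 lower in stromal-like cells, where 16.7% of all genes were higher and 21.8% lower. In cluster 17, 13 of 40 were higher and 9 lower, where 21.5% of all genes were higher and 24.1% lower. STAT3-induced genes were 14 of 18 higher over the class and 8 of 18 in cluster 17, with 0 lower in both. Stromal-like Timp1, an inhibitor of matrix metalloproteinases, was at 1545 CPM with losartan, 391 CPM with saline and 3.85 CPM without injury. In cluster 8, Timp1 was at 9.87 CPM in losartan cells (7 UMIs) and 14.04 CPM in saline cells (27 UMIs). Its higher class level with losartan than with saline was thus not seen within cluster 8. The saline class level of Timp1 came mostly from the few saline stromal-like cells outside that cluster. In cluster 17, Timp1 was at 1648 CPM in losartan and 17.1 CPM in uninjured cells. For saline against uninjured, 8 of 38 pathway genes were higher and 17 lower, where 12.8% of all genes were higher and 36.7% lower. The counts became 12 higher and 10 lower with the centre of all genes removed.

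Other receptor chains differed from the members. Il11ra1, the private chain for interleukin-11, was at 237 CPM in losartan, 29.1 CPM in saline and 268 CPM in uninjured stromal-like cells. In cluster 8 it was at 107 CPM in losartan and 18.7 CPM in saline cells, so its higher level with losartan held within that cluster, at 5.73-fold. Il31ra, which pairs with Osmr, was at 59.3 CPM in losartan, 336 CPM in saline and 65.7 CPM in uninjured stromal-like cells, but at 412 CPM in losartan and 398 CPM in saline cells of cluster 8. Stat3 itself was at 315 CPM in losartan, 87.0 CPM in saline and 448 CPM in uninjured stromal-like cells. In cluster 8, Stat3 was at 38.1 CPM in losartan and 52.0 CPM in saline cells.

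In epithelial-like cells, 0 of 31 pathway genes were higher and 5 lower in losartan against saline (Socs2, Il4ra, Vegfa and Timp1 among them), where 1.97% of all genes were higher and 5.94% lower. The counts became 2 higher and 4 lower with the centre of all genes removed. Against uninjured, saline had 11 of 35 higher and 9 lower, where 20.7% of all genes were higher and 16.2% lower. Losartan had 8 of 33 higher and 10 lower, where 15.6% of all genes were higher and 18.6% lower. Among other ligands, Clcf1, the cardiotrophin-like cytokine, was at 75.8 CPM with losartan, 51.1 CPM with saline and 8.73 CPM without injury. Cish, another STAT-induced inhibitor, was at 21.2 CPM with losartan, 17.5 CPM with saline and 60.1 CPM without injury, the same side as Socs3. Icam1, an adhesion molecule, was at 32.2 CPM with losartan, 45.3 CPM with saline and 9.38 CPM without injury, and Vegfa, a vessel growth factor, at 16.8, 30.8 and 2.72 CPM.

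In neutrophil-like cells, 8 of 33 pathway genes were higher and 2 lower in losartan against saline, where 12.2% of all genes were higher and 7.11% lower. Lrg1, a secreted glycoprotein stored in neutrophil granules, was at 664 CPM in the losartan and 150 CPM in the saline library, and Stat3 at 317 and 182 CPM. Lrg1 leads cluster 2, which held most losartan neutrophil-like cells. In macrophage-like cells 3 of 38 were higher and 3 lower, where 7.75% of all genes were higher and 5.74% lower, with Lcn2, an iron-sequestering lipocalin, at 0.894 CPM in the losartan and 53.9 CPM in the saline library. In dendritic-like cells 1 of 35 was higher and 4 lower, where 7.81% of all genes were higher and 10.6% lower.

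The genes whose levels across the 15 combinations of class and library were most like each member's are given as a description, by Pearson's r of log2(CPM + 5). For Il6 these were Il1r1 (0.94), Ebf1 (0.92) and Pgm2l1 (0.92), and for Lif they were Mdm2 (0.84), Smpdl3b (0.82) and Pkm (0.81). For Osm the first was Fcgr3 and for Ctf2 it was Gm31784, both at 1.00 after rounding, where Ctf2 rests on 1 high combination, saline stromal-like cells. Osmr was most like Kitl (0.97), Lifr like Rps6ka3 (0.97), Il6st like Zhx1 (0.96), Il6ra like Nckap1l (0.94) and Socs3 like Fmr1 (0.91). Il11 was under 10 CPM in all 15 and was not compared. The 15 points share 3 libraries and differ in depth.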

How the data were processed

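Cells from cornea and limbus were measured in 3 libraries, 1 per group and, per the series' design text, 1 mouse each. The deposited values are raw UMI counts per gene and barcode, which the authors produced, per the file headers, by Cell Ranger 8.0.0, on GRCm38 per the submitters' processing notes. The sources used here give no annotation release and do not say whether introns were counted or doublets removed. Libraries held 5887 losartan, 6814 saline and 13270 uninjured barcodes with 92753670, 83155441 and 177003042 UMIs.

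Barcodes with at least 500 genes and at most 20% mitochondrial UMIs passed, which removed 725 losartan, 680 saline and 703 uninjured ones. Doublets were scored against 2 simulated per cell and the highest 0.8% per 1000 barcodes removed (243, 334 and 1334 cells). Counts scaled to 10000 per cell, 2000 variable genes without the members and pathway genes, 30 principal components and 20 neighbours gave Leiden clusters at resolution 0.8, all libraries together, with no batch correction. A name needed at least 3 markers in 10% of cells, checked against the top 10 genes and a score gap of 0.1. A cluster shallow for its library, with no marker of its class among its top 10 genes, also stayed unnamed. That rule applied to clusters 5, 12, 14.5 and 16, although 5, 12 and 16 each had 12 epithelial markers detected. Some mixed clusters were split again (9.0, 14.6 and the like), and these naming steps were chosen with the clusters in view.

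CPM are UMIs of a gene per 1000000 UMIs of a class in a library. A gene counted as measured where either library of a comparison reached 10 CPM. Classes under 50 cells are given by counts, and the 15 saline cells of cluster 17 with their intervals. Thinning drew 1500 UMIs per cell and left out shallower cells. With 1 library per group there is no test and no p-value, and a count of 0 was set to a floor of 3 counts over the class or cluster. Alternatives were median-of-ratios scaling, pseudocounts of 1 and 10 in place of 5, no minimum level, 200 genes or 10% mitochondrial UMIs as cell filters, resolutions of 0.4 and 1.2, doublets kept, thinning, and the mean of each cell's CPM. The ratio, interval and thinning steps were tested on simulated data.

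Members and pathway lists were chosen with earlier results of these data known. Named genes were all 10 members, at most 4 genes per pathway list, class and comparison past 1.5-fold with the largest log2 ratio, their values in other comparisons, and up to 3 most similar genes per member. Some genes that this rule names are not reported here. The early-response list and the values for single clusters were added after the data had been seen. Python 3.11.15, numpy 2.4.6, scipy 1.17.1, scikit-learn 1.9.0, scanpy 1.11.5, leidenalg 0.10.2 and matplotlib 3.10.9 were used.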

Additional observations from a re-analysis of the deposited data

Results flagged for a closer look

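Cells that no marker list named held ligand RNA above the level of unnamed uninjured cells in both injured libraries. They are not the same cells in each group. Of the 2239 unnamed uninjured cells, 1285 lay in cluster 5 and 930 in cluster 12. Both clusters scored highest for epithelial markers, and they held 1 losartan and 0 saline cells between them. Their receptor levels were above those of the uninjured epithelial-like class. In clusters 5 and 12, Osmr was at 140 and 380 CPM and Lifr at 160 and 73.2 CPM. Il6st was at 67.7 and 160 CPM there, and Il6ra at 23.5 and 74.3 CPM. The unnamed injured cells lay in clusters 9, 14, 16 and 20 and their splits. These cells enter none of the class comparisons. In unnamed losartan cells, Il6 was at 17.5 CPM, Lif at 9.01 CPM, Osm at 42.7 CPM and Il11 at 11.2 CPM. In unnamed saline cells, Il6 was at 26.1 CPM, Lif at 34.0 CPM, Osm at 139 CPM and Il11 at 5.11 CPM. In unnamed uninjured cells the levels were 0.499 CPM for Il6, 2.5 CPM for Lif, 0.624 CPM for Osm and 0.749 CPM for Il11. Cluster 14.6, whose highest marker score was for mural markers, had 23 losartan and 6 saline cells. It held 80 losartan and 82 saline UMIs of Il6. Cluster 14.2 had Lif at 8.01 CPM in losartan and 138 CPM in saline cells. Cluster 9.2, whose top genes mix macrophage and dendritic markers, had Osm at 187 CPM in losartan and 312 CPM in saline cells.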

How the results depend on the processing

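For 28 ratios between libraries past 1.5-fold, the alternatives kept the direction and a similar size in 224 cases, moved the value in 68 and turned its direction in 7. In cluster 8 alone, losartan against saline in stromal-like cells turned to a log2 ratio of −0.56 for Il6st, −0.94 for Lifr (1 losartan and 14 saline UMIs) and −0.38 for Socs3. For Il6 the ratio there was −0.14, from 0 losartan UMIs and 1 saline UMI, which gives no direction. In the macrophage-like class, Lif in cluster 9.1 turned to 0.43, from 10 losartan and 4 saline UMIs. With cells thinned to 1500 UMIs, Lifr in losartan against uninjured stromal-like cells turned to −0.039 and Osmr in losartan against saline macrophage-like cells to −0.34. In cluster 8, 0 members were higher in losartan against saline, with 3 pathway genes higher and 8 lower. In epithelial-like cells, cluster 19 had 2 members higher and 0 lower with losartan against saline, and cluster 7 had 1 higher. Thinning gave 1 member higher in saline against uninjured epithelial-like cells and 1 lower in losartan against uninjured stromal-like cells, as did the mean of each cell's CPM for the stromal-like comparison. Under median-of-ratios scaling, 1 member was lower in saline against uninjured stromal-like cells and 10 pathway genes were, 3 pathway genes were lower in losartan against saline stromal-like cells, and 2 were higher in epithelial-like cells. With no minimum level, 2 pathway genes were lower in losartan against saline stromal-like cells. The cause of these moves was not tested. No paired analysis was possible because each group has 1 library. Thinning also moved source shares, with 25.2% of losartan Il6 in stromal-like cells, 45.2% of saline Il6 in macrophage-like cells, 12.8% of saline and 57.7% of uninjured Lif and 31.4% of losartan and 58.3% of saline Il11 in epithelial-like cells, and 80.7% of losartan and 86.8% of saline Osm in neutrophil-like cells. Deep libraries and deep classes limit what shares of cells can show, and no replicate check exists for any difference.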
